A study of Caenorhabditis elegans with 3 samples.

Results

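The genes described here encode the parts of cilia in the nematode Caenorhabditis elegans: the motors and particles of intraflagellar transport (IFT), the BBSome, the transition zone, and a few regulators and receptors. They were chosen by gene symbol from a list of 51 names. The rule itself used no measured values, but the list was made with earlier results of these data known. Of these names 45 had a row on the array, among 19513 genes or unnamed rows in all, and all 45 were measured on every array. The names bbs-1, bbs-4, ift-20, mksr-2, arl-13 and bbs-7 matched no row, but bbs-7 and osm-12 are names of the same gene, so that gene is included as osm-12. Their transcripts were compared by hybridising 2 RNA samples to each of 3 microarrays. The second channel of every array carried mRNA of adult hermaphrodites labelled TP12 and "w/ emb 3", taken to mean adults with embryos, and the first carried a mixed wild-type reference. The labels do not say what TP12 means. They give no genotype for the adults, no age in hours or days and no composition for the reference. The 3 arrays are 3 numbered preparations of 1 group; each was on an array of its own, so preparation and array cannot be told apart. Nothing says that they came from separate cultures. The p-values therefore measure only the spread between these arrays, which may be technical.

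In C. elegans cilia are found at the dendrite tips of sensory neurons, where they hold the receptors for odours, tastes, touch and pheromones. They are built by IFT, in which kinesin-2 motors carry trains of the IFT-A and IFT-B complexes and their cargo to the tip, and a dedicated dynein brings them back. The BBSome holds the trains together, the transition zone is a gate at the base of the cilium, and the RFX-family factor DAF-19 switches on many of the genes through a promoter element called the X-box. Worms that lack these genes commonly fail to take up dye into sensory neurons (dyf), avoid high osmolarity poorly (osm) or fail to chemotax (che), which gave many of them their names.

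Values are log2 ratios of the channels, as the authors deposited them, centred near 0 on each array. No source used here states the direction of the ratio. Adults over reference is taken as the likely one, because the adults are the second channel in the labels and because of oocyte and germline markers. Of 30 measured markers, 29 were positive and passed the test (96.7%, beside 14.8% of all genes tested), with a median of 1.49. Without replicate 1, 29 passed as positive and 1 as negative, beside 22.2% and 20.1% of all genes, with a median of 1.42. These markers were chosen with earlier results known and are not independent evidence. "Higher" and "lower" below mean in adults against the reference, and would exchange places under the opposite direction. Replicate 1 stood apart. Over all 19293 genes tested its values correlated with those of replicates 2 and 3 at 0.686 and 0.679, while replicates 2 and 3 correlated at 0.895, so counts of every list are also given without it. Spot intensities were not used here, so dim or saturated spots could not be set apart, and the number of arrays limits the precision.

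Most cilium genes stood close to the reference. Of the 45, 42 did not pass limma's test against 0 (Benjamini-Hochberg over all genes, adjusted p under 0.05), 3 were lower and 0 were higher. The lower genes were 6.67% of the members, where 13.7% of all genes tested were lower and 14.8% higher; this difference was not tested. The 3 lower genes were osm-6, arl-3 and che-13. At an unadjusted p under 0.05 the counts were 4 lower and 1 higher, where all genes gave 18.6% and 20.3%. The median log2 ratio of the 45 was -0.13 beside 0.02 for all genes tested, and single members ran from -0.83 for osm-6 to 0.36 for nphp-1. By array the medians were -0.21, -0.01 and -0.09 in replicates 1, 2 and 3, each below 0 and lowest in replicate 1.

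The intervals show how large a difference could have been missed. The 95% intervals of the 45 means, from the moderated fit, reached 0.31 to 0.47 to either side. For 44 of 45 genes the whole interval lay between -1 and 1, that is within a 2-fold difference either way, as it did for 77.8% of all genes tested. The exception was osm-6, whose interval ran from -1.21 to -0.45. A mean between -0.5 and 0.5 was found for 42 of 45, against 71.5% of all genes. A ratio compressed by a dim spot would also lie near 0, and that part was not tested.

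**Figure D1:**
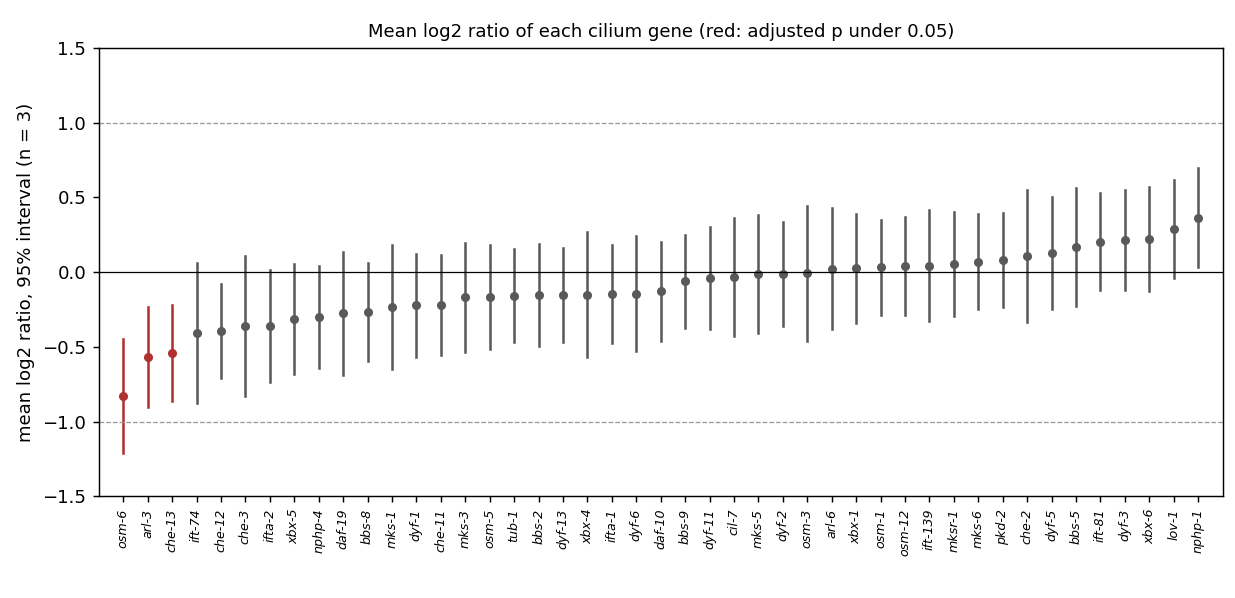
Mean log2 ratio of each of the 45 cilium genes (vertical axis, likely adults over mixed reference) with its 95% interval from the moderated fit over 3 arrays, in order of the mean. Red marks osm-6, arl-3 and che-13, the genes with an adjusted p under 0.05; dashed lines at -1 and 1 mark a 2-fold difference, and the interval of osm-6 alone crosses one.

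The gene osm-6, which encodes a core subunit of the IFT-B complex, gave the most negative mean of the set. Its log2 ratios were -0.45, -0.99 and -1.05 in replicates 1, 2 and 3. All were below 0, with replicate 1 nearer to it than the others. The mean was -0.83 ± 0.33 (SD, n = 3), or 1.78-fold lower (adjusted p = 0.00786, limma). It was the only member called in all 3 fits that left out 1 array.

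The gene arl-3 encodes a small GTPase that releases lipid-modified cargo proteins inside cilia. Its values were -0.55, -0.76 and -0.39, below 0 on every array. The mean was -0.57 ± 0.19 (SD, n = 3), or 1.48-fold lower (adjusted p = 0.0216, limma). The gene che-13 encodes another IFT-B subunit. Its values were -0.45, -0.65 and -0.52, the closest set of values among the 3 called genes. The mean was -0.54 ± 0.10 (SD, n = 3), or 1.46-fold lower (adjusted p = 0.0213, limma). Both calls needed all arrays or the pair of replicates 2 and 3. For arl-3 the adjusted p was 0.189 without replicate 2 and 0.0634 without replicate 3. For che-13 it was 0.17 and 0.137.

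Leaving out 1 array at a time changed the counts, for members and for all genes alike. Without replicate 1 there were 5 lower members and 1 higher, where 20.1% of all genes were lower and 22.2% higher. The added lower genes were che-12 and bbs-8, and the higher gene was nphp-1. Without replicate 2 the counts were 1 lower and 0 higher, with 8.72% and 9.28% of all genes. Without replicate 3 they were again 1 lower and 0 higher, with 9.98% and 9.83%.

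**Figure D2:**
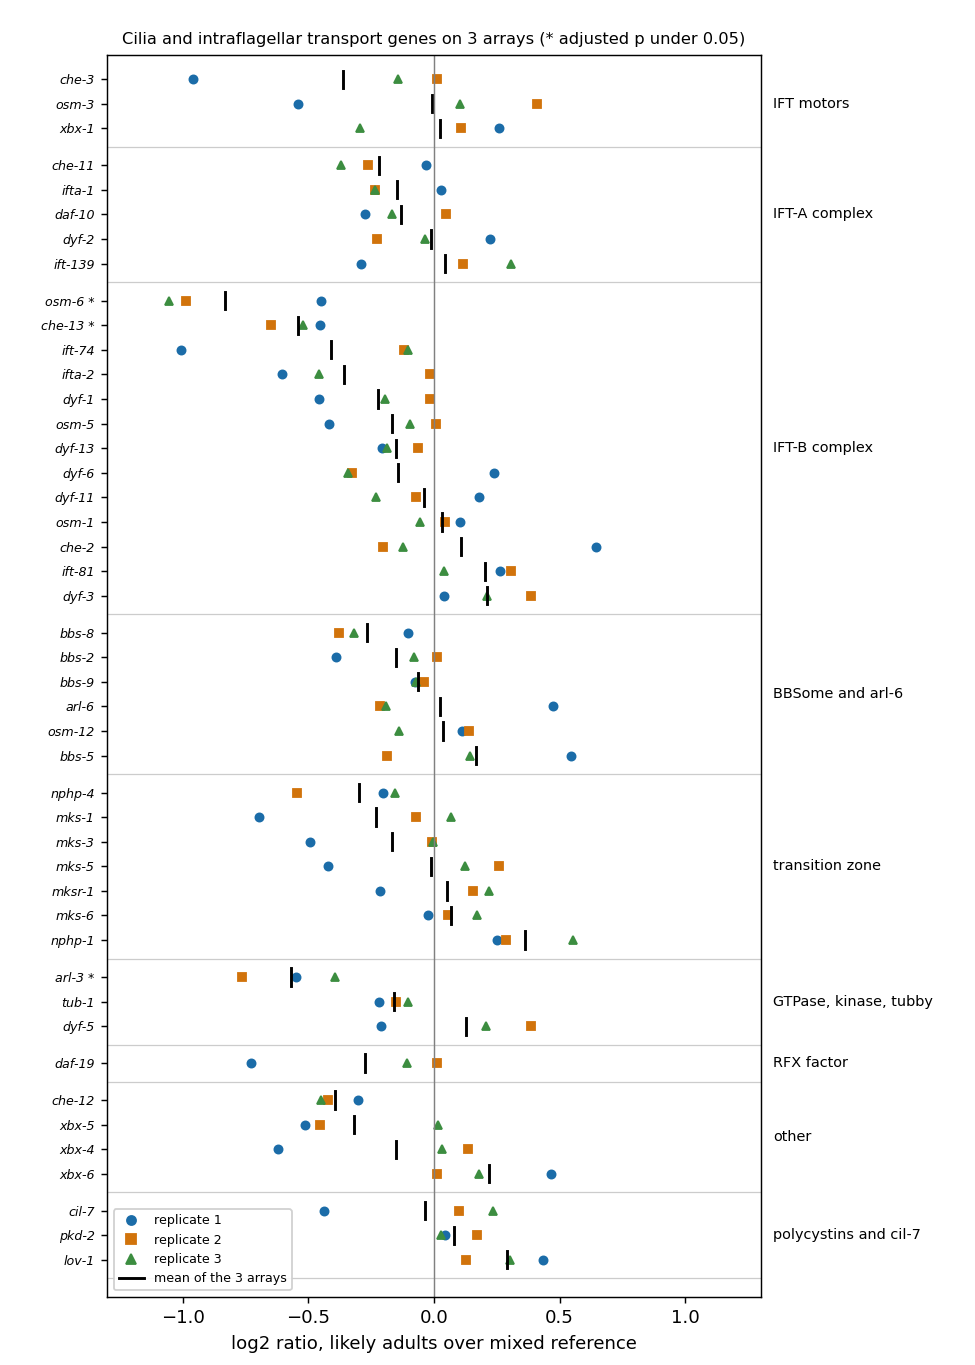
Log2 ratio of each cilium gene on each array (horizontal axis, likely adults over mixed reference), grouped by the role of the gene product, with a black bar at the mean of the 3 arrays and a star at genes with an adjusted p under 0.05. Replicate 1 (circles) lies away from the other arrays for many genes, such as che-3 and ift-74, while osm-6, che-13 and arl-3 lie below 0 on all 3.

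None of the 3 motor genes passed. The gene osm-3 encodes the kinesin-2 motor that extends the tips of cilia. It stood at -0.54, 0.41 and 0.10, with a mean of -0.01 ± 0.48 (SD, n = 3) and arrays on both sides of 0. The gene che-3 encodes the heavy chain of the IFT dynein. It stood at -0.96, 0.01 and -0.14, a range of 0.97 that was the widest among the 45 genes, with a mean of -0.36 ± 0.52. Its partner xbx-1, the light intermediate chain gene, stood at 0.26, 0.11 and -0.29, with a mean of 0.02 ± 0.29. The heavy and light chain genes of this dynein therefore took opposite signs in replicate 1 and neither could be told from the reference.

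The 5 measured IFT-A genes, whose products are needed for the return journey of the trains, also did not pass. Their means ran from -0.22 ± 0.17 for che-11 to 0.04 ± 0.30 for ift-139. Between them lay ifta-1 at -0.15 ± 0.15, daf-10 at -0.13 ± 0.16 and dyf-2 at -0.01 ± 0.23 (SD, n = 3). Only che-11 was below 0 on all 3 arrays, at -0.03, -0.26 and -0.37. The SD of the 5 means was 0.11, and the SDs of single genes over the arrays were 0.15 to 0.30. A mean of 3 arrays varies less than a single array, so these values do not show that the genes were alike.

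The IFT-B complex carries tubulin and other building material. Of its 13 measured genes 2 were lower (osm-6 and che-13, above) while 11 did not pass. These 15.4% are close to the 13.7% of all genes tested that were lower. The remaining means ran from -0.41 to 0.21. The most negative was ift-74, whose human counterpart binds tubulin together with that of ift-81, at -1.01, -0.12 and -0.10, so that its mean of -0.41 ± 0.52 rests on replicate 1. Its partner ift-81 stood at 0.26, 0.31 and 0.04, above 0 on every array. The Rab-like gene ifta-2 stood at -0.36 ± 0.31, with an unadjusted p of 0.0573 (limma). The genes dyf-1, whose product activates the OSM-3 motor, and osm-5 stood at -0.22 ± 0.22 and -0.17 ± 0.22. Among the others, dyf-13 stood at -0.15 ± 0.08 and dyf-6 at -0.14 ± 0.33, with dyf-11 at -0.04 ± 0.21 and osm-1 at 0.03 ± 0.08. The means of che-2 and dyf-3 were 0.11 ± 0.47 and 0.21 ± 0.17, and che-2 reached 0.64 on the first array, the highest value of any member on any array. Within IFT-B the means spanned 1.04, from osm-6 to dyf-3.

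The BBSome genes did not pass either. Of 6 measured genes of the BBSome and its recruiting GTPase, 0 passed (0 at an unadjusted p under 0.05, limma). Their means ran from -0.27 ± 0.14 for bbs-8 to 0.17 ± 0.37 for bbs-5. The gene bbs-9 had the narrowest range over the arrays of all 45 genes, with -0.07, -0.04 and -0.07. In bbs-8 all values were negative, at -0.10, -0.38 and -0.32, and it passed without replicate 1 (adjusted p = 0.0455, limma). The means of bbs-2, arl-6 and osm-12 were -0.15 ± 0.21, 0.02 ± 0.39 and 0.04 ± 0.15 (SD, n = 3). For arl-6, the GTPase gene, replicate 1 stood at 0.47 and the other arrays at -0.21 and -0.19.

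The transition zone holds 2 sets of proteins, named after Meckel syndrome (mks) and nephronophthisis (nphp). Of 7 measured genes 0 passed, with 1 higher at an unadjusted p under 0.05 (limma). That gene was nphp-1, the only member whose interval lay wholly above 0, at 0.25, 0.29 and 0.55 with a mean of 0.36 ± 0.16 (adjusted p = 0.0978). Its partner nphp-4 stood at -0.20, -0.54 and -0.15, with a mean of -0.30 ± 0.21 (0.178). The nphp genes were thus on opposite sides of 0 on every array, although neither passed with all 3 arrays. Among the mks genes, mks-1 and mks-3 stood at -0.23 ± 0.41 and -0.17 ± 0.28. The scaffold gene mks-5 stood at -0.01 ± 0.36, mksr-1 at 0.05 ± 0.23 and mks-6 at 0.07 ± 0.10 (SD, n = 3). In all 5 of these replicate 1 gave the lowest value.

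Regulators did not pass apart from arl-3. The transcription factor gene daf-19 stood at -0.73, 0.01 and -0.11, with a mean of -0.28 ± 0.40 (adjusted p = 0.299, limma). The negative mean came from replicate 1. The kinase gene dyf-5, whose product limits cilium length, stood at -0.21, 0.39 and 0.21, and the Tubby gene tub-1, which acts in membrane trafficking into cilia and in fat storage, at -0.22, -0.15 and -0.10. Of 4 further X-box or dye-filling genes, che-12 was below 0 on every array at -0.30, -0.42 and -0.45, with a mean of -0.39 ± 0.08 (0.067). The means of xbx-5, xbx-4 and xbx-6 were -0.32 ± 0.29, -0.15 ± 0.41 and 0.22 ± 0.23.

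The last 3 members act in the sensory neurons with which males sense mates. The genes lov-1 and pkd-2 encode the polycystins of those neurons, and cil-7 acts in the shedding of vesicles from their cilia. The values of lov-1 were 0.43, 0.13 and 0.30, above 0 on every array, with a mean of 0.29 ± 0.15 (adjusted p = 0.175, limma). Those of pkd-2 were 0.04, 0.17 and 0.03, with a mean of 0.08 ± 0.08. The gene cil-7 was at -0.44 in replicate 1 and at 0.10 and 0.24 in the others. None could be told from the reference, whose content of males is not given.

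The arrays agreed unequally over the cilium genes. Over the 45 genes, which share arrays and reference, replicates 2 and 3 correlated at 0.75, but replicate 1 correlated with them at 0.105 and 0.202. The same pattern was seen in 37 other cilium genes (0.837, against 0.286 and 0.253) and 29 markers of ciliated sensory neurons (0.825, against 0.125 and 0.240). For 31 neuronal markers all 3 values were higher, at 0.933, 0.75 and 0.772. That list was also more widely spread, with SDs of 0.74, 0.80 and 0.65 in replicates 1, 2 and 3. The 45 genes were spread most widely on the array of replicate 1, with an SD of 0.40, against 0.30 and 0.27 on the others. Replicate 1 was the value farthest from the mean of the other arrays in 28 of 45 genes (62.2%), beside 55.9% of all genes tested. All 3 values were below 0 in 14 members (31.1%) and above 0 in 6 (13.3%), where all genes gave 27.2% and 30.1%. The sign differed between arrays in the remaining 25.

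**Figure D3:**
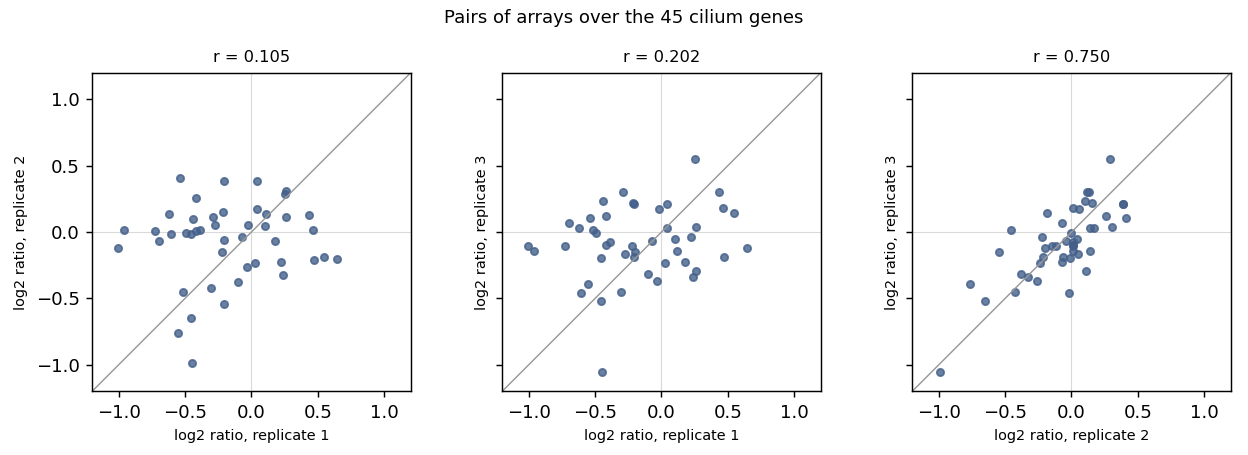
Log2 ratio of the 45 cilium genes on 1 array against another (both axes, likely adults over mixed reference), with the line of equal values. Points follow the line for replicates 2 and 3 (r = 0.750) and scatter for replicate 1 against replicate 2 (r = 0.105) and replicate 3 (r = 0.202).

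Rows of 1 gene show how far a single row can be trusted. Of the 45 genes 3 had 2 rows each. The rows of che-12 stood at means of -0.49 and -0.29 and were negative on every array. Those of lov-1 stood at 0.00 and 0.58, so the positive mean of that gene came from 1 of its rows. For ift-139 they stood at -0.10 and 0.19. The rows of a gene thus differed by 0.20 to 0.57, beside a median SD of a member over the arrays of 0.22.

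Many cilium genes share their place in the genome with other genes, and a row may take up transcripts of both. By the RefSeq genes of assembly WBcel235, which served only for names and neighbours, 21 of the 45 overlapped another protein-coding gene, and 19 such neighbours had a tested value. Overlap was judged from whole-gene intervals, without exons, strand or the place of the probe, so it does not show that a row takes up both transcripts. Of these 19 neighbours 4 were lower and 1 higher, where 13.7% of all genes tested were lower and 14.8% higher. The neuropeptide gene flp-1 lies inside daf-10 and stood at -3.17 ± 0.49 (adjusted p = 9.85e-05, limma), while daf-10 stood at -0.13. The collagen genes col-36 and col-158 overlap dyf-13 and nphp-4 and stood at -4.22 ± 0.25 and -4.04 ± 0.57, with the cilium genes at -0.15 and -0.30. Beside bbs-5 at 0.17, the overlapping inpp-4B was higher at 1.43 ± 0.34. In these 4 pairs the neighbour was far from the reference and the cilium gene was not. In the remaining pair with a called neighbour, tps-2 and arl-3 (below), both genes were lower. The part of neighbours in the values of cilium genes was not tested.

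Neighbours were on the same side of 0 as the cilium gene in all 3 tested cases for called genes and in 12 of 16 for the others. The gene nphp-4 enters these counts with both col-158 and pho-8. Of all genes tested 48.1% had a mean below 0, but that is not a share of pairs with the same sign. No such share was worked out for overlapping genes at large, so the counts have no background, and they were not tested. The gene arl-3 lies inside tps-2, a trehalose-6-phosphate synthase gene, which stood at -1.01 ± 0.63 and was lower (adjusted p = 0.013, limma). The values of tps-2 were -0.52, -1.73 and -0.80, and replicate 2 gave the lowest value in both genes. Inside che-13 lies srf-2, at -0.46 ± 0.38 (0.0872), and osm-6 partly overlaps R31.2, at -0.50 ± 0.46 (0.0904). By array srf-2 stood at -0.82, -0.49 and -0.07, lowest in replicate 1, while che-13 was lowest in replicate 2. For R31.2 the values were 0.01, -0.89 and -0.62, lowest in replicate 2, while osm-6 was lowest in replicate 3. The part of these neighbours in the values of arl-3, che-13 and osm-6 was not tested.

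Most other genes of the cilium did not pass either. Of 57 further genes of cilium structure, transport and signalling, 37 were measured, of which 4 were lower, 1 higher and 32 did not pass, with a median of -0.07. That is 10.8% lower and 2.7% higher, beside 13.7% and 14.8% of all genes tested. Without replicate 1 there were 6 lower and 4 higher, with a median of 0.02. Those are 16.2% and 10.8%, beside 20.1% and 22.2% of all genes. The most negative was xbx-3, an X-box gene, at -0.11, -1.22 and -1.01 (mean -0.78 ± 0.59, adjusted p = 0.031, limma), low on 2 of the arrays and near 0 on the first. The kinase gene cdkl-1 stood at -0.70 ± 0.20 and che-14, which encodes a Patched-related protein of apical membranes, at -0.66 ± 0.12 (adjusted p 0.00986 and 0.00988). The gene pdl-1, whose product binds lipid-modified proteins and hands them to ARL-3, stood at -0.46 ± 0.13 (0.0431). The higher gene was dyf-17 at 0.49 ± 0.22 (0.0426). None of these 5 passed without replicate 2 or without replicate 3, where the list held 0 calls on either side. The other kinesin-2 genes klp-11 and kap-1 were among those that did not pass, at -0.11 ± 0.23 and -0.07 ± 0.06.

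Many neuronal markers were lower. They comprise genes used by most neurons and some of single transmitter classes or subsets, such as unc-25, unc-47, cha-1 and unc-86, which were among those called. Of 31 measured, 14 were lower and 0 higher (2 higher at an unadjusted p under 0.05, limma), with a median of -0.41. The lowest were ida-1 and sbt-1, genes of dense-core vesicles and neuropeptide processing, at -2.02 ± 0.34 and -1.75 ± 0.66, and the synaptic genes unc-13 and snt-1 at -1.59 ± 0.21 and -1.56 ± 0.18 (SD, n = 3). The 17 that did not pass included other vesicle and peptide genes, such as egl-21, unc-31 and snb-1 at 0.16 ± 0.06, 0.21 ± 0.21 and 0.07 ± 0.24. Means below 0 were found for 23 of 31 markers. By array the medians of this list were -0.23, -0.67 and -0.54. Without replicate 1 there were 18 lower and 1 higher (58.1% and 3.23%, beside 20.1% and 22.2% of all genes). Of 29 genes listed as markers of ciliated sensory neurons, 4 were lower and 0 higher (1 higher at an unadjusted p under 0.05), with a median of -0.13. This list is mixed too, since tax-6 and ttx-3 also act outside these neurons. These 4 were gpa-2 at -0.97 ± 0.60, tax-6 at -0.86 ± 0.01, odr-3 at -0.85 ± 0.70 and gpa-14 at -0.72 ± 0.20. Without replicate 1 there were 6 lower and 1 higher (20.7% and 3.45%, beside 20.1% and 22.2% of all genes). In that fit gpa-2 stood at -0.63 and odr-3 at -1.25. The call of odr-3 was lost without replicate 2 (adjusted p = 0.0501, limma) and without replicate 3 (0.129). The shares of lower genes were thus 6.67% for the cilium genes, 13.8% for the sensory neuron markers and 45.2% for the neuronal markers, beside 13.7% of all genes tested. For the sensory neuron markers the share of lower genes was close to that of genes at large. The higher side was not, with 0 higher beside 14.8% of all genes. Means below 0 made up 79.3% of this list, beside 48.1% of all genes. The differences between lists were not tested. In whole animals fewer cells of a type and less RNA per cell cannot be told apart.

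Markers of male neurons and seminal fluid, which include the 3 polycystin-related members, gave 2 lower of 15 and 0 higher (0 at an unadjusted p under 0.05, limma), with a median of -0.03. These 13.3% are close to the 13.7% of all genes that were lower, while 14.8% of all genes were higher. Without replicate 1 the counts were the same, where 20.1% of all genes were lower and 22.2% higher. The lower genes were nlp-8 at -2.75 ± 0.85 and swm-1 at -1.13 ± 0.22. Part of the motor genes that serve transport outside cilia were higher. Of 13 genes of cytoplasmic dynein, dynactin and kinesin-1, 6 were higher (46.2%, beside 14.8% of all genes) and 0 lower (0 lower at an unadjusted p under 0.05), with a median of 0.45. The kinesin light chain gene klc-1 stood at 1.09 ± 0.33 and dhc-1, the heavy chain of cytoplasmic dynein, at 0.99 ± 0.36, against -0.36 for its ciliary relative che-3. The dynactin genes dnc-4 and dnc-1 stood at 0.93 ± 0.39 and 0.77 ± 0.56, and the dynein chain genes dlc-1 and dyci-1 at 0.74 ± 0.35 and 0.45 ± 0.11. Without replicate 1, 7 were higher (53.8%, beside 22.2% of all genes) and dnc-1 stood at 0.44. The call of dyci-1 was lost with array medians centred (adjusted p = 0.0519, limma), with blocks of rows centred (0.0679), without replicate 2 (0.15) and without replicate 3 (0.253). The oocyte and germline markers, led by puf-7, puf-6, cgh-1 and cbd-1 at 2.03, 1.99, 1.94 and 1.92, were higher as well, and their part in the values of other genes was not tested.

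**Figure D4:**
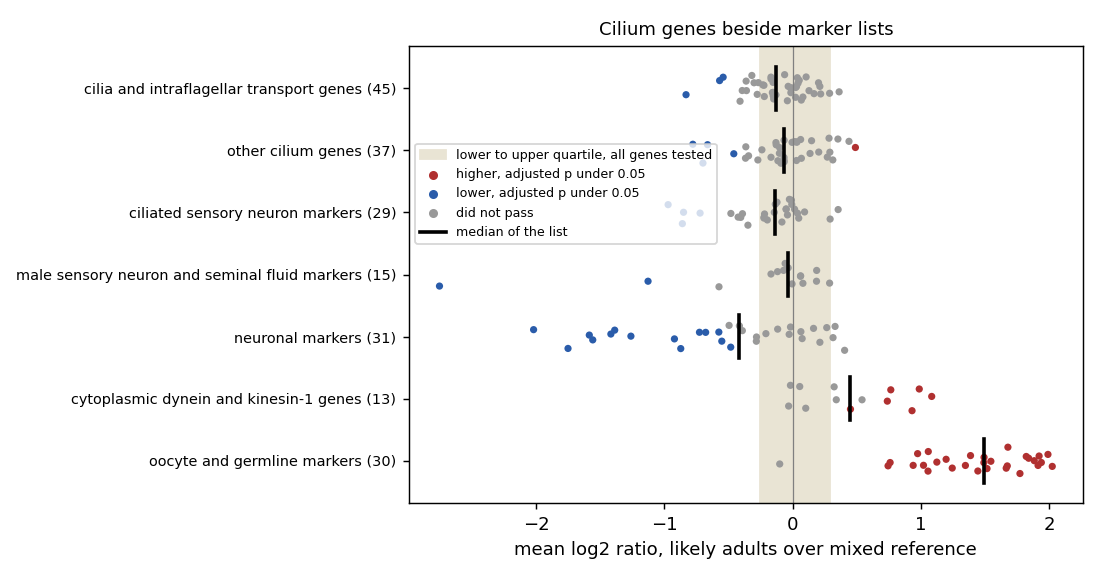
Mean log2 ratio of each gene (horizontal axis, likely adults over mixed reference) in the cilium genes and 6 lists beside them, with the number of genes measured, a black bar at each median, blue and red for lower and higher genes with an adjusted p under 0.05, and a band from the lower to the upper quartile of all genes tested. Cilium genes and sensory neuron markers gather within or near the band (medians -0.13 and -0.13), while neuronal markers extend below it (median -0.41) and germline markers lie above it (median 1.49).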

How the data were processed

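The authors deposited a log2 ratio of the channels for every row of each array. The base follows from the numbers: raised from base 2, all 59554 ratios under 10 fell on a grid of 0.001, to 0.01 of its step. The sources used here give no scanner, dyes, background correction or normalisation. Array means were -0.0028, -0.0034 and -0.0020. GEO's annotation from 2007 pairs 15655 of the 20000 rows with 1 symbol, 198 with several and 4147 with none; RefSeq updated these names (15569 by gene identifier, 7 by accession, 79 unmatched). Rows of a symbol were averaged, and 19293 genes or unnamed rows with a value on all 3 arrays (220 left out) were fitted against 0 in limma 3.58.1 (R 4.3.3; lmFit, eBayes, 5.86 prior degrees of freedom). Tests were two-sided, adjusted by Benjamini and Hochberg's method at 0.05, and the fit was tested on simulated data. All members are named. Of other lists, all that passed are named, or the 4 most extreme on each side where over 12 did. The genes klp-11, kap-1, egl-21, unc-31 and snb-1 and the neighbours of members were chosen after their values were seen. Members and lists were chosen with earlier results of these data known. Alternatives were centring on array medians or on 32 blocks of rows, leaving out each array, genes with values on 2 arrays, 1 row per symbol, other variance models and array weights. A planned search of promoters was not run.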

Additional observations from a re-analysis of the deposited data

How the results depend on the processing

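The 3 calls of osm-6, arl-3 and che-13 held with array medians centred, blocks of rows centred, values on at least 2 arrays, 1 row per symbol, a trended robust prior and array weights. Without variance moderation 0 of all 19293 genes passed, so 0 members were lower and of the other cilium genes 0 were higher and 0 lower. The counts of members were 5 lower (11.1%, beside 17.2% of all genes) with the 32 blocks of rows centred. With array weights (0.282, 1.12 and 3.16 for replicates 1, 2 and 3) they were 8 lower and 2 higher (17.8% and 4.44%, beside 22.9% and 25.3%). The other cilium genes gave 2 higher and 6 lower with blocks (5.41% and 16.2%, beside 16.2% and 17.2% of all genes). With weights they gave 4 higher and 7 lower (10.8% and 18.9%, beside 25.3% and 22.9%). Leaving out 1 array gave 0 to 1 higher and 1 to 5 lower members, and 0 to 4 higher and 0 to 6 lower other cilium genes, with a member median of -0.15 to -0.06. Of the 45 members 16 changed sign under some alternative, and none of these was called. With blocks centred the changed values were 0.012 for osm-3, -0.056 for osm-12, -0.045 for dyf-5, -0.067 for bbs-5, -0.061 for xbx-1, -0.093 for mks-6 and -0.15 for arl-6. With weights they were -0.095 for che-2, -0.020 for osm-1, 0.14 for osm-3, -0.055 for osm-12, -0.16 for xbx-1, 0.019 for xbx-4, 0.12 for mks-5, -0.15 for arl-6 and 0.16 for cil-7. With 1 row, ift-139 was at -0.10. Leaving out 1 array gave ranges of -0.16 to 0.26 for che-2, -0.0052 to 0.074 for osm-1, -0.22 to 0.26 for osm-3, -0.013 to 0.13 for osm-12, -0.13 to 0.095 for dyf-2, -4.35e-05 to 0.30 for dyf-5, -0.15 to 0.055 for dyf-11 and -0.020 to 0.34 for bbs-5. They were -0.088 to 0.21 for ift-139, -0.092 to 0.18 for xbx-1, -0.29 to 0.085 for xbx-4, -0.15 to 0.19 for mks-5, -0.031 to 0.19 for mksr-1, -0.20 to 0.14 for arl-6 and -0.17 to 0.17 for cil-7. The causes were not tested. No paired analysis was possible because the arrays form 1 group. Signal over background was not used here.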
